A study of Homo sapiens with 6 samples.

Results

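The genes that detect viral RNA inside a cell, or pass that signal on, were followed in H661 cells in which the transcription factor SALL4 had been knocked down. The 10 genes were chosen by name, as RIGI, IFIH1, DHX58, TLR3, EIF2AK2, ADAR, MAVS, TICAM1, STING1 and TBK1, out of 18404 genes with a probe set of their own on the array, and each of the 10 had 1 such probe set. H661 is an established line of human large cell lung carcinoma. In SALL4-sh the cells were transduced with a lentiviral hairpin against SALL4 (3 arrays), and in Scr-sh they received a scrambled hairpin (3 arrays). Each group carried 1 hairpin sequence in 1 line, so that loss of SALL4 and any other difference between the 2 hairpins cannot be told apart. The labels do not say whether replicate arrays stem from separate cultures, the study's general statement of independent experiments does not name the arrays, and p-values therefore measure the spread between these arrays, which may be technical.

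RIG-I (RIGI) and MDA5 (IFIH1) are helicases of the cytoplasm that bind foreign double-stranded RNA and hand the signal to MAVS on the outer membrane of mitochondria. TLR3 reads double-stranded RNA in endosomes and signals through TICAM1, also called TRIF. Both routes meet at the kinase TBK1, which phosphorylates IRF3 and so switches on interferon and chemokine genes, and STING1 brings signals of cytoplasmic DNA to the same kinase. Protein kinase R (EIF2AK2) stops translation when it binds double-stranded RNA, and ADAR edits adenosine to inosine in such RNA, which keeps the cell's own transcripts from being sensed. Several of these genes are themselves raised by interferon.

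RIGI and IFIH1 were 8.81-fold and 8.48-fold lower in SALL4-sh, and ADAR was 2.15-fold lower. TBK1 was higher, at 2.56 times its level in Scr-sh. The other 6 genes did not pass the test, and among them the levels of MAVS, TICAM1, STING1 and DHX58 in SALL4-sh lay between 0.897 and 1.06 of those in Scr-sh. Of the 10 genes 3 were lower at an adjusted p under 0.05 (limma), as were 5.54% of the 13803 genes tested, and 1 was higher, as were 5.95%, so that 4 of the 10 stand beside 11.5% of all genes in either direction. Without adjustment the counts were again 3 lower (11.1% of all genes) and 1 higher (13.6%). All SALL4-sh values lay below all Scr-sh values for 4 of the 10 (13.1% of all genes tested) and above them for 1 (15.7%), together 5 of 10 against 28.9%. Without Scr-sh replicate 2, the array that stood apart, 3 were lower (6.01% of all genes) and 2 higher (8.08%). With dim genes kept in the fit, 1 was lower (1.33%) and 0 higher (1.18%), and the methods' t-test, which does not share the variance between genes, gave 1 lower (1.04%) and 0 higher (0.819%), in both cases ADAR, whereas without adjustment both gave 3 lower and 1 higher. The median log2 fold change was -0.13 over the 10 genes and 0.02 over all genes tested. The study put RIGI and IFIH1 into a signature drawn from these same arrays, so their fall is no independent evidence of a direction.

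**Figure D1:**
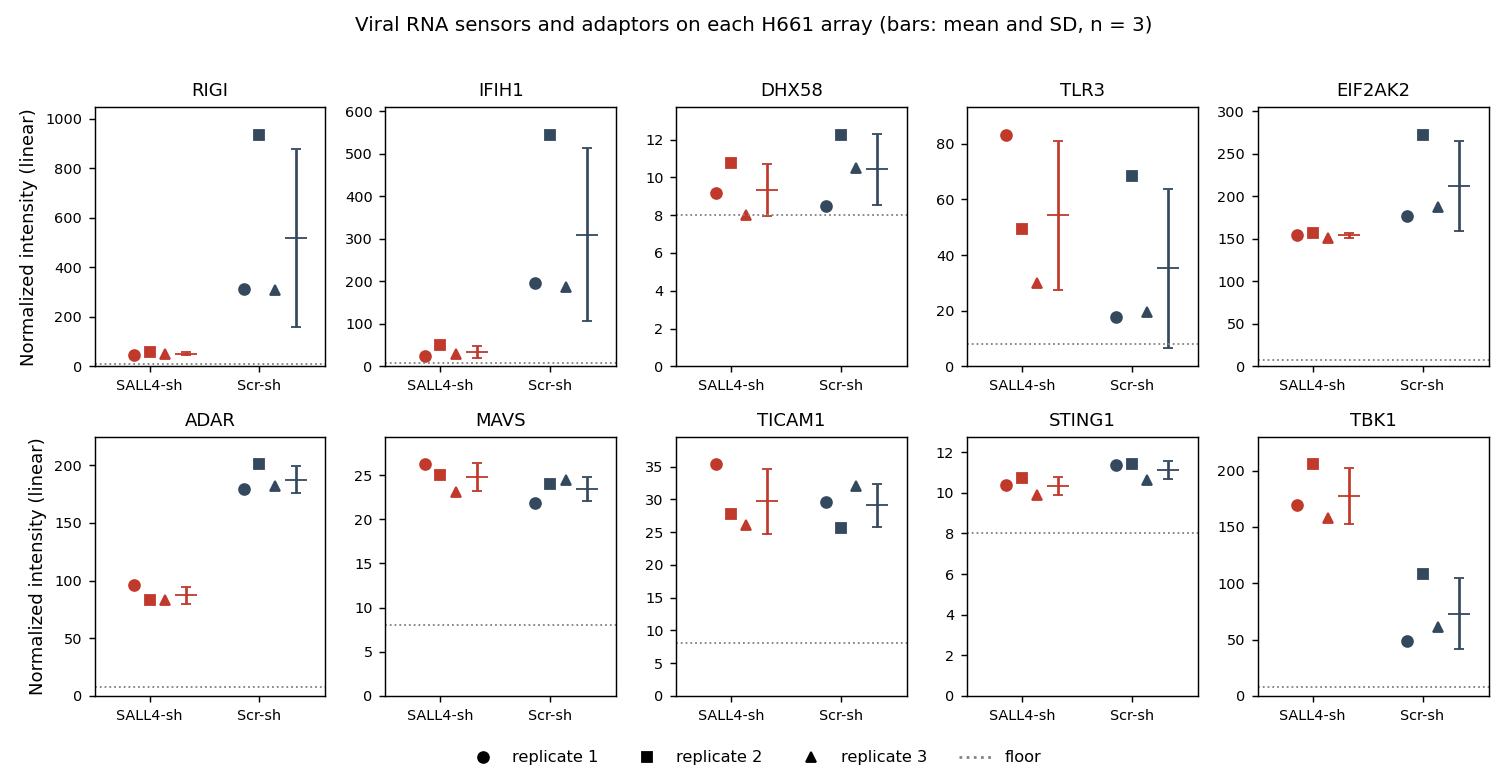
Normalized intensity (linear scale, from 0) of the 10 genes on each H661 array, with SALL4-sh on the left and Scr-sh on the right of each panel. Symbols are single arrays, bars are mean and SD (n = 3), with a dotted line at the floor, 8. The SALL4-sh arrays of RIGI (44.3 to 59.2) and IFIH1 (23.8 to 49.4) stand far below those of Scr-sh, those of TBK1 stand above, and replicate 2 of Scr-sh is the highest Scr-sh array for RIGI, IFIH1, DHX58, TLR3, EIF2AK2, ADAR, TBK1 and, barely, STING1.

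The arrays were Affymetrix arrays, and a level is the deposited normalized intensity, in which every value below 8 stands at exactly 8, as 38.8% to 40.4% of the values of an array did. SALL4 RNA itself was 30.7 ± 3.72 in SALL4-sh and 120.05 ± 13.8 in Scr-sh (SD, n = 3 each), a log2 fold change of -1.97 (limma, adjusted p = 0.000644). Log2 values of arrays of the same group correlated at 0.969 to 0.980 and those of different groups at 0.955 to 0.965, and no 2 arrays held identical values. Scr-sh replicate 2 stood apart. In it 212 of the 13803 genes tested were over 1 log2 unit above both other Scr-sh arrays, whereas this number was 32 to 43 for each of the other Scr-sh arrays and 25 to 54 for each SALL4-sh array. EPCAM, an adhesion protein of epithelial cells, had 843 to 1113 in SALL4-sh and 590 to 898 in Scr-sh, while CLDN4 and ELF3, also epithelial, stood at the floor on all 6 arrays. CDH1, or E-cadherin, was the 1 of 7 epithelial markers tested that passed, at 17.2, 16.1 and 17.3 in SALL4-sh and 10.5, 8 and 8.68 in Scr-sh (limma, and not with the methods' t-test after adjustment). Of 13 leukocyte markers on the array, 7 stood at the floor on all 6 arrays, the pan-leukocyte gene PTPRC and the T cell gene CD3E among them, and the summed level of all 13 was 154 to 165 in SALL4-sh and 157 to 193 in Scr-sh. Of the 4 leukocyte markers tested 0 passed an adjusted p of 0.05 with limma or the methods' t-test, and without adjustment 1 was lower with limma and 0 with the methods' t-test. Of 10 fibroblast and endothelial markers, 5 were at the floor throughout, and 1 of the 4 tested, THY1, was lower in SALL4-sh (58.7, 50.7 and 59.1 in SALL4-sh, 107, 85.01 and 94.0 in Scr-sh). The call of THY1 was lost in the fit with dim genes kept (limma, adjusted p = 0.0571), in which COL1A1 was lower instead (limma, adjusted p = 0.0387). The fibroblast and endothelial list had 0 lower with the methods' t-test (2 without adjustment) and in each fit with 1 array left out other than Scr-sh replicate 2. Whether the changes of CDH1 and THY1 bear on the sensor genes was not tested.

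RIGI had an intensity of 44.3, 59.2 and 50.4 in the 3 SALL4-sh arrays, against 313, 935 and 309 in the 3 Scr-sh arrays. The groups did not overlap, and the lowest Scr-sh array was far above the highest SALL4-sh array. Its log2 fold change was -3.14 (limma, standard error 0.38, adjusted p = 0.00204), the 8th lowest of the 13803 genes tested, and permuting its 6 values gave a two-sided exact p = 0.1, the smallest p that 3 against 3 arrays allow. IFIH1, its relative, which prefers long double-stranded RNA, had 23.8, 49.4 and 27.9 in SALL4-sh and 197, 545 and 187 in Scr-sh. Here too the groups were apart, and replicate 2 was the highest array in both groups. The log2 fold change of IFIH1 was -3.08 (limma, SE 0.42, adjusted p = 0.00276), next to that of RIGI in rank. The log2 fold changes of RIGI and IFIH1 differed by -0.05 (RIGI minus IFIH1, exact permutation p = 1 over the ratio of the 2 genes within each array). In RNA from a whole culture, a lower level in every cell and fewer cells with the transcript cannot be told apart.

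Scr-sh replicate 2 carried 3.00 times the mean of the other Scr-sh arrays for RIGI and 2.84 times for IFIH1. When it was left out, the log2 fold change of RIGI was -2.61 (limma, adjusted p = 0.000775) and that of IFIH1 was -2.58 (limma, adjusted p = 0.00203). Both genes passed the test with any 1 of the 6 arrays left out. They did not pass when dim genes were kept in the fit (limma, adjusted p = 0.0694 for RIGI and 0.0862 for IFIH1) or with the methods' t-test over the 13803 genes of the filtered set (adjusted p = 0.0872 for RIGI and 0.104 for IFIH1). The unfiltered fit holds 3893 genes at the floor on all 6 arrays, which have no spread, and limma estimated 0.42 prior degrees of freedom in it, against 5.33 with the filter.

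DHX58 encodes LGP2, the helicase of this family that has no caspase recruitment domains and that modulates the other members. It lay close to the floor, with 9.20, 10.7 and 8 in SALL4-sh and 8.50, 12.2 and 10.5 in Scr-sh. The groups overlapped, and 1 SALL4-sh array stood at the floor itself, so that its log2 fold change of -0.16 (limma, adjusted p = 0.699) is limited by the floor. The ratio of SALL4-sh to Scr-sh was 0.897 (95% confidence interval 0.663 to 1.21).

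Interferon acts on many of its target genes through the interferon-stimulated response element. The letters GAAA-NN-GAAA, a common core of this element, were searched on both strands of the promoter windows of RefSeq (GRCh38.p14), which run from 250 bases before to 50 bases after a transcription start. Windows were present for 8 of the 10 genes, and DHX58 and STING1 had none in the table used. The core was found for 3 of these 8 genes, IFIH1, EIF2AK2 and TLR3, against 4.38% of all 27305 genes with a window (3.57% of all 35116 windows). The windows of RIGI and IFIH1 are shown because these genes had the largest falls of the 10, and those of EIF2AK2 and TLR3 because they hold the core. They are chr9:32526147-32526446 (RIGI, minus strand), chr2:162318635-162318934 (IFIH1, minus strand), chr2:37156931-37157230 (EIF2AK2, minus strand) and chr4:186068906-186069205 (TLR3, plus strand), each read 5′ to 3′ along its gene. Capitals mark each match to GAAA-NN-GAAA, on either strand.
RIGI: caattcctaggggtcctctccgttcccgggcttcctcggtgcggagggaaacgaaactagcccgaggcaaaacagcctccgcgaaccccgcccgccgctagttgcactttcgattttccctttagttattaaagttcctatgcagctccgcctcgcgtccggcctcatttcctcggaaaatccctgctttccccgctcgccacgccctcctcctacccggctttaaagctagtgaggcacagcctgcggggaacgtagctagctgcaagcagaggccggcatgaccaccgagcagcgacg
IFIH1: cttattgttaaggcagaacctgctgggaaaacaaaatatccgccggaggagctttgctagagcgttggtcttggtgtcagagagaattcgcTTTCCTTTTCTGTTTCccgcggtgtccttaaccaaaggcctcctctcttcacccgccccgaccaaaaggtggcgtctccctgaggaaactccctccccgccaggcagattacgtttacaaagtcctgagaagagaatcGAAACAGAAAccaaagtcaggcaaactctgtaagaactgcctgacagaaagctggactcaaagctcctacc
EIF2AK2: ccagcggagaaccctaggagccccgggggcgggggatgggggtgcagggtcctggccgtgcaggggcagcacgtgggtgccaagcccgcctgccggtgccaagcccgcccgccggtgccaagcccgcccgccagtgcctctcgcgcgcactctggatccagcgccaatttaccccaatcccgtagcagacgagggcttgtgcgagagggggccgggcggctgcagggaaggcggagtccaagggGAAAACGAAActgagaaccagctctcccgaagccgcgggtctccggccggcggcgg
TLR3: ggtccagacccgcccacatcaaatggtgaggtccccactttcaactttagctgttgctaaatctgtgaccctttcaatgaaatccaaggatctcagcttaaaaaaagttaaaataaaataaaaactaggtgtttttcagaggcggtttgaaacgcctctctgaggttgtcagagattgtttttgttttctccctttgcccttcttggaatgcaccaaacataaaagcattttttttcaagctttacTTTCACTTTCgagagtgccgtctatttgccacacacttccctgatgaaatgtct
IFIH1 held 3 matches, of which those that begin at -159 and -153 from the start overlap and the third begins at -21. In EIF2AK2 the match begins at -6 and in TLR3 at -4, so that each spans the annotated start. RIGI, ADAR (3 windows), MAVS, TICAM1 and TBK1 had no match, which says only that these exact letters, with 2 free bases between the repeats, are not in these windows. Of the 4 genes that passed the test IFIH1 had a match, and RIGI, ADAR and TBK1 had none.

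TLR3 had 83.3, 49.5 and 29.97 in SALL4-sh, against 17.6, 68.3 and 19.7 in Scr-sh. The groups overlapped through 1 array, Scr-sh replicate 2, which was 3.66 times the mean of the other Scr-sh arrays, and the SALL4-sh arrays were also far apart from each other. The log2 fold change of 0.79 (SE 0.52) did not pass the test (limma, adjusted p = 0.406), and its 95% confidence interval covers ratios of 0.774 to 3.88. Leaving out Scr-sh replicate 2 gave 1.42 (limma, adjusted p = 0.0366), and with any other single array left out it did not pass. RIGI, IFIH1 and TLR3 were the 3 of the 10 genes in which that array was over 1 log2 unit above both other Scr-sh arrays, and no other array was so for any of the 10. For RIGI and IFIH1 it lies on the far side of the difference between groups, and for TLR3 it lies against it.

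EIF2AK2, which encodes protein kinase R, had 155, 156 and 150.3 in SALL4-sh and 177, 272 and 187 in Scr-sh. The groups did not overlap, and the SALL4-sh arrays were close to each other. The log2 fold change was -0.44 (SE 0.19), which did not pass the test (limma, adjusted p = 0.204), with an exact permutation p of 0.1. Leaving out Scr-sh replicate 2 gave -0.24 (limma, adjusted p = 0.396).

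ADAR had 96.0, 82.8 and 82.8 in SALL4-sh and 179, 201 and 182 in Scr-sh. Each group was narrow, and every SALL4-sh value was well below every Scr-sh value. The log2 fold change was -1.11 (limma, SE 0.16, adjusted p = 0.00329), a ratio of 0.465 (95% confidence interval 0.364 to 0.593). ADAR passed the test under all alternatives tried, 10 of processing and 6 with 1 array left out, and Scr-sh replicate 2 was 1.11 times the mean of the other Scr-sh arrays for it. A single level per gene does not separate the interferon-inducible long form of the enzyme from the constitutive short form. Within arrays the log2 fold change of RIGI minus that of ADAR was -2.03 and that of IFIH1 minus that of ADAR was -1.98, and the within-array ratios of the groups did not overlap in either case (exact two-sided permutation p = 0.1 each, 6 pairs of genes compared, none of which can reach 0.05 with 3 arrays a group).

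**Figure D2:**
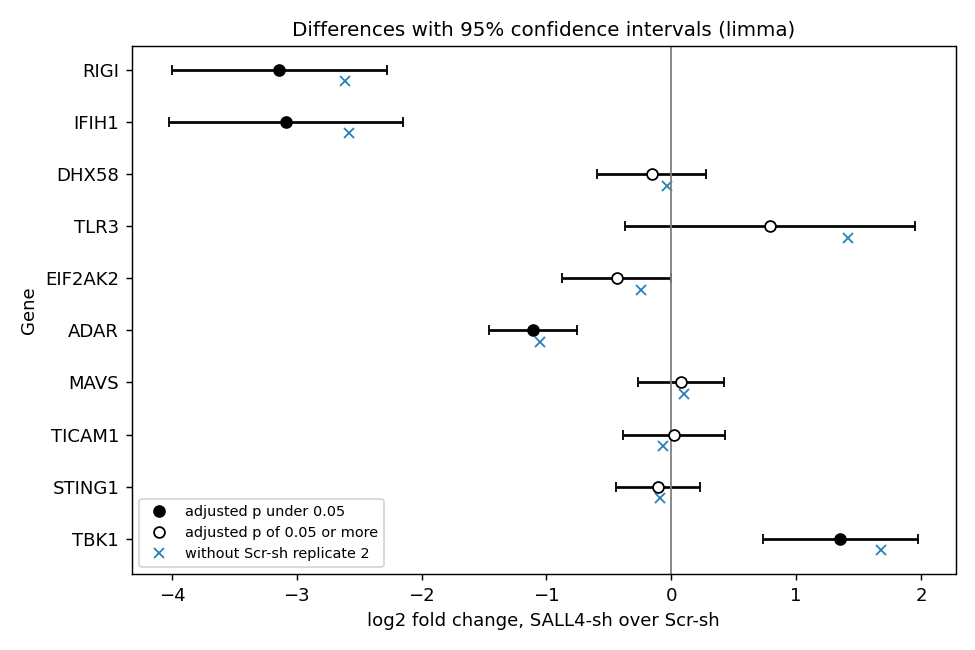
Log2 ratio of SALL4-sh over Scr-sh for the 10 genes, with 95% confidence intervals from limma (n = 3 arrays per group). Filled circles passed an adjusted p of 0.05, and crosses give the value without Scr-sh replicate 2. RIGI (-3.14), IFIH1 (-3.08) and ADAR (-1.11) lie below 0, TBK1 (1.35) lies above 0, and the intervals of the other 6 reach or cross 0.

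None of the 3 adaptors passed the test. MAVS, the adaptor of RIG-I and MDA5, had 26.2, 24.98 and 23.1 in SALL4-sh and 21.9, 24.1 and 24.4 in Scr-sh. These ranges overlapped, and the ratio was 1.06, with a confidence interval of 0.832 to 1.34 (limma, adjusted p = 0.814). TICAM1, the adaptor of TLR3, had 35.3, 27.7 and 26.0 in SALL4-sh and 29.7, 25.6 and 32.0 in Scr-sh. Its ratio was 1.02, with a confidence interval of 0.765 to 1.35 (limma, adjusted p = 0.964). STING1 was weak, with 10.4, 10.7 and 9.89 in SALL4-sh and 11.4, 11.4 and 10.6 in Scr-sh, a ratio of 0.928 with a confidence interval of 0.736 to 1.17 (limma, adjusted p = 0.733). Over the 3 adaptors the intervals ran from 0.736 to 1.35. The sign of TICAM1 turned under 2 of the normalizations and without Scr-sh replicate 2 or SALL4-sh replicate 1.

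TBK1, the kinase on which the adaptors converge, had 169, 205 and 158 in SALL4-sh and 49.1, 108 and 61.5 in Scr-sh. All SALL4-sh arrays were above all Scr-sh arrays, and replicate 2 was the highest array of each group. The log2 fold change was 1.35 (limma, SE 0.28, adjusted p = 0.0150), a ratio of 2.56 with a 95% confidence interval of 1.66 to 3.94. TBK1 minus MAVS, taken within each array, differed between the groups by 1.28 on the log2 scale, with no overlap (exact permutation p = 0.1). The call of TBK1 was lost without Scr-sh replicate 3 (limma, adjusted p = 0.0561), SALL4-sh replicate 2 (adjusted p = 0.0639) or SALL4-sh replicate 3 (adjusted p = 0.0512, limma throughout), and its direction held throughout, with a log2 fold change of 1.11 to 1.68 over the 6 fits. It was also lost with dim genes kept in the fit (limma, adjusted p = 0.150) and with the methods' t-test over the 13803 genes (adjusted p = 0.161).

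**Figure D3:**
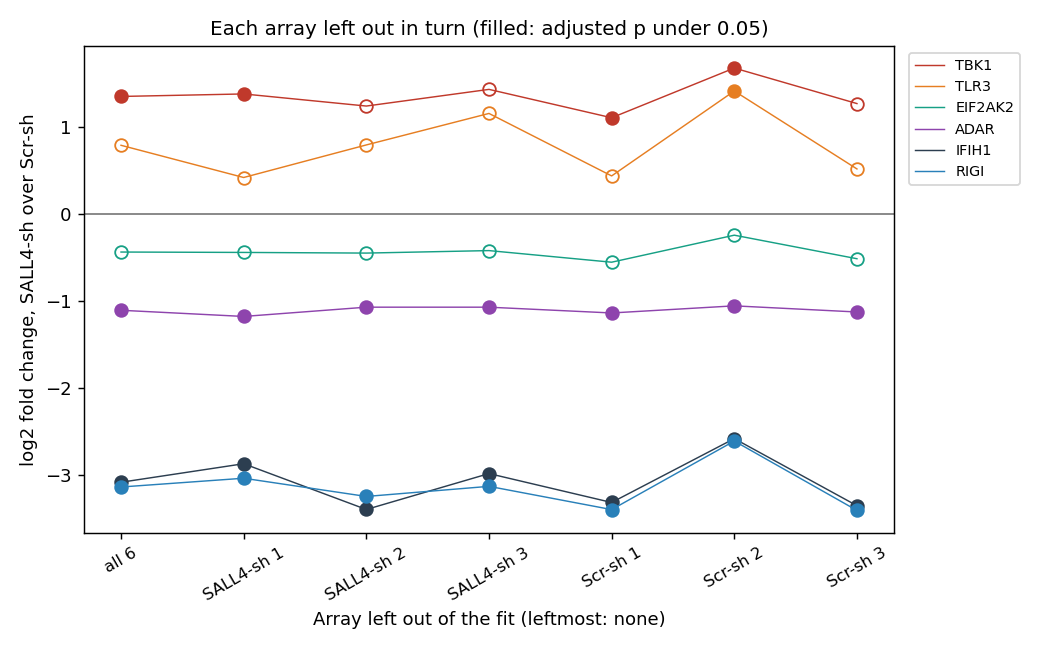
Log2 ratio of SALL4-sh over Scr-sh for 6 of the genes with no array (leftmost) or 1 array left out of the fit. Filled circles passed an adjusted p of 0.05 from limma. RIGI, IFIH1 and ADAR stay filled throughout, TBK1 lies between 1.11 and 1.68 and is open in 3 of the 6 fits with an array left out, and TLR3 is filled only without Scr-sh replicate 2.

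Genes around the sensors were counted by lists, and 12 of those named from them passed the test with any 1 array left out: IFIT1, ISG15, ZC3HAV1, USP4, OASL, OAS3, IFIT2, IFIT3, STAU2, EXOSC10, MORC3 and CCL5. Most were named for a small adjusted p in these same arrays, so this count is no result about the lists. Under 10 alternatives of processing, ISG15, ZC3HAV1, USP4 and MORC3 passed in 9 each, and IFIT2 and IFIT3 in 8 each. Lower and higher shares of all genes tested were 5.54% and 5.95% (limma, adjusted p under 0.05), or 11.1% and 13.6% without adjustment. With dim genes kept in the fit they were 1.33% and 1.18%, and with the methods' t-test 1.04% and 0.819%. Of 32 ubiquitin ligases and other regulators of the sensors, 6 were lower and 2 higher in SALL4-sh, with a median log2 fold change of 0.08. With dim genes kept in the fit 4 were lower and 1 higher, and with the methods' t-test 2 lower and 0 higher (7 lower and 5 higher without adjustment). IFIT1, which binds RNA that lacks the methylated cap of host transcripts, had 16.02, 36.6 and 16.1 in SALL4-sh and 681, 1112 and 540.4 in Scr-sh, a log2 fold change of -5.14 (limma, adjusted p = 0.000345). ISG15, a ubiquitin-like modifier that is attached to RIG-I and MDA5 among other proteins, had one of -2.22 (limma, adjusted p = 0.00143). ZC3HAV1, the zinc finger antiviral protein, whose short form promotes RIG-I signaling, had 75.7, 74.8 and 76.6 in SALL4-sh and 142, 181 and 136 in Scr-sh (log2 fold change -1.002, limma, adjusted p = 0.00661). USP4, a deubiquitinase that stabilizes RIG-I, went the other way, with 156, 150.5 and 168 in SALL4-sh and 82.5, 62.6 and 54.9 in Scr-sh (log2 fold change 1.27, limma, adjusted p = 0.00394). TRIM25, a ligase linked to the activation of RIG-I and named here after its values were seen, stood at 0.06 in log2 fold change, with overlapping groups (limma, adjusted p = 0.889).

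Of 23 genes that act between MAVS or TICAM1 and IRF3 or NF-kB, inhibitors of the signal included, 1 was lower and 2 were higher, with a median of -0.03. These counts are close to the 5.54% lower and 5.95% higher of all genes tested. With dim genes kept in the fit (limma) and with the methods' t-test 0 were lower and 0 higher (3 lower and 2 higher without adjustment in each). The lower one was TNIP1, an inhibitor of NF-kB activation (log2 fold change -0.92). The higher ones were TAX1BP1, an adaptor of the deubiquitinase A20 (0.86), and RELA, the p65 subunit of NF-kB (0.69, limma, adjusted p = 0.0401). These 3 calls are weak, since TAX1BP1 and RELA passed without Scr-sh replicate 2 but with no other single array left out (limma, adjusted p of up to 0.0918 for TAX1BP1 and 0.127 for RELA), and TNIP1 did not pass without Scr-sh replicate 1 or SALL4-sh replicate 3 (up to 0.0705). IRF3, the transcription factor that TBK1 phosphorylates, and IKBKE, the closest relative of TBK1, were named after their values were seen. IRF3 had 40.9, 55.6 and 49.3 in SALL4-sh and 58.8, 61.1 and 53.4 in Scr-sh (log2 fold change -0.26, limma, adjusted p = 0.419). IKBKE had 11.8, 18.5 and 10.8 in SALL4-sh and 10.5, 15.8 and 10.9 in Scr-sh, which overlap (log2 fold change 0.13, limma, adjusted p = 0.819), and its sign turned without SALL4-sh replicate 2 (-0.11).

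Among other sensors of nucleic acids, 7 of 21 tested were lower and 3 were higher, with a median of -0.20, and 7 more were at the floor throughout. With dim genes kept in the fit and with the methods' t-test 3 were lower and 0 higher (without adjustment 7 lower in each, and 5 higher with limma and 3 with the methods' t-test), and IFIT2 and IFIT3 did not pass in either (adjusted p of up to 0.0991 and 0.105). OASL, a relative of the oligoadenylate synthetases that enhances RIG-I activity, had 9.54, 18.0 and 9.73 in SALL4-sh and 148, 281 and 160.3 in Scr-sh, a log2 fold change of -3.99. OAS3, a synthetase that activates RNase L, had 8, 10.5 and 8.83 in SALL4-sh and 35.9, 38.7 and 31.0 in Scr-sh. The fall of OAS3 is limited by the floor, as is that of IFIT2, at 8, 9.11 and 8 in SALL4-sh against 52.9, 243 and 77.9 in Scr-sh. The other 4 of the 7 were IFIT1, which the list above also holds, IFIT3, OAS2 and ZNFX1, and the 3 that were higher, DHX15, DHX33 and DHX36, are all DEAH-box helicases. IFIT3, OAS2, ZNFX1 and these 3 helicases were named after their values were seen. DHX33, which has been linked to the sensing of double-stranded RNA, had 114, 161 and 143 in SALL4-sh and 50.7, 96.6 and 43.7 in Scr-sh, and no SALL4-sh value lay below a Scr-sh value. DHX15, DHX33 and DHX36 passed with 1 of the 6 arrays left out, Scr-sh replicate 2, and not with any other (limma, adjusted p of up to 0.0837, 0.103 and 0.156), and OAS2 and ZNFX1 passed without Scr-sh replicate 1 or 2 alone (up to 0.110 and 0.105). The log2 fold change of IFIT2 was -3.58, or -2.94 when Scr-sh replicate 2 was left out. IFIT3, like OAS2, stood at the floor in all 3 SALL4-sh arrays. Both entered the test only through their Scr-sh values, so lower was the only call open to them. The log2 fold changes of IFIT3, -3.22, and -2.60 when Scr-sh replicate 2 was left out, are estimates limited by the floor.

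Of 29 partners, paralogs and substrates of protein kinase R and ADAR, 2 were lower and 0 higher by limma (5 lower and 6 higher without adjustment), with a median of 0.07, and the methods' t-test called 1 lower and 0 higher. The 2 lower genes are near the 5.54% of all genes tested and are no result about the list. The 2 were STAU2, which binds double-stranded RNA (log2 fold change -1.27, limma, adjusted p = 0.00251), and EIF2B1, a subunit of the exchange factor that phosphorylated eIF2 inhibits (-1.37, limma, adjusted p = 0.0257). EIF2B1 did not pass without Scr-sh replicate 1 or 2 or SALL4-sh replicate 1 or 3 (limma, adjusted p = 0.0539 to 0.0715). Of 21 genes listed under RNA turnover and masking, which include genes of chromatin silencing as well as nucleases, 1 was lower and 3 were higher, with a median of 0.17. Of all genes tested 5.54% were lower and 5.95% higher, so the 1 lower gene is no result about the list. With dim genes kept in the fit 1 was lower and 1 higher, and with the methods' t-test 1 lower and 0 higher (2 lower and 3 higher without adjustment). EXOSC10, a nuclease of the nuclear RNA exosome, was the lower one (-1.33). The higher ones were not nucleases but MORC3, a chromatin ATPase (1.45), TENT4A, a poly(A) polymerase (0.73), and TASOR, a subunit of the silencing complex HUSH (0.76). TENT4A passed without Scr-sh replicate 1 and TASOR without Scr-sh replicate 2, and neither passed with any other array left out (limma, adjusted p of up to 0.109 and 0.138).

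Of 18 cytokine genes listed as possible targets of the sensors, 9 were at the floor throughout, and IFNB1, the interferon gene that IRF3 acts on, was among these 9. Of the 7 tested, 3 were lower and 0 higher by limma, with and without adjustment. CXCL10, 1 of these 3, entered the test only through its Scr-sh values, so lower was the only call open to it. With dim genes kept in the fit 1 was lower and 0 higher, and the methods' t-test also called 1 lower and 0 higher (3 lower and 0 higher without adjustment in each). CXCL10 and IFNL2 did not pass with dim genes kept (limma, adjusted p = 0.217 and 0.175). CCL5, a chemokine for T cells, had 19.8, 37.6 and 18.1 in SALL4-sh and 811, 1106 and 678 in Scr-sh, a log2 fold change of -5.15 (limma, adjusted p = 0.000133). CXCL10 stood at the floor in all 3 SALL4-sh arrays and had 22.2, 156 and 32.8 in Scr-sh, so that it was at least 6.05-fold lower. It did not pass when any 1 of the SALL4-sh arrays was left out (limma, adjusted p = 0.0687 to 0.0834), and without Scr-sh replicate 2 its log2 fold change was -1.75, against -2.60 with it. IFNL2, a type III interferon, was low in both groups, at 8, 11.7 and 8 in SALL4-sh and 18.3, 16.01 and 13.2 in Scr-sh, and its probes may also read its near-identical neighbor IFNL3. IFNL3 had 79.0, 87.6 and 50.3 in SALL4-sh and 92.4, 70.4 and 90.3 in Scr-sh and did not pass (limma, adjusted p = 0.582). Nor did IFNL1, of the same type (limma, adjusted p = 0.464). IFNL2 passed without SALL4-sh replicate 2 and with no other array left out (limma, adjusted p of up to 0.143). The study's signature from these arrays holds IFIT1, IFIT2, IFIT3, OASL, CCL5 and CXCL10, so their falls are no independent evidence either.

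**Figure D4:**
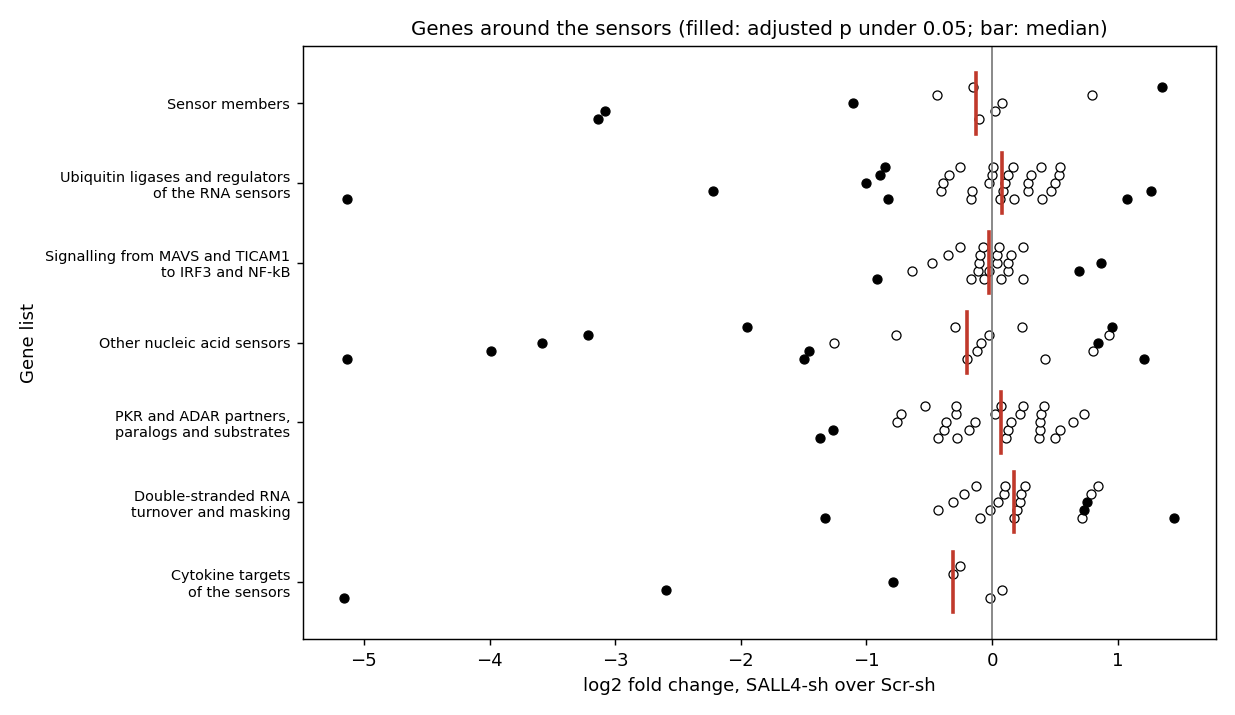
Log2 ratio of SALL4-sh over Scr-sh for each gene tested, by list, with the 10 sensors and adaptors in the top row. Filled circles passed an adjusted p of 0.05 from limma, and red bars are list medians, which run from -0.31 (cytokine targets) to 0.17 (RNA turnover and masking). The points furthest to the left are CCL5 (-5.15) and IFIT1 (-5.14), and IFIT1 is drawn in both lists that hold it.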

How the data were processed

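RNA of 3 SALL4-sh and 3 Scr-sh samples had been hybridized to Affymetrix arrays. The authors deposited normalized intensity values on a linear scale for 32321 probe sets, floored at 8, and the submitters' processing notes name RMA, with no version. Log2 of the intensity was taken. A single gene symbol was listed for 19158 of them, several for 1388, which were left out, and none for 11775. The brightest probe set stood for a gene. The dimmest 25% of genes by mean log2 intensity were left out, which kept all 10 members. The test was the moderated linear model of limma (version 3.58.1, R 4.3.3, lmFit then eBayes), with Benjamini-Hochberg adjustment over 13803 genes and a threshold of 0.05. Simulation of an earlier fit of these data without the filter, not shown here, had given too many false calls, which is why the filter was used. The filtered fit is not the stricter one: it called 821 genes higher and 764 lower, against 218 and 244 without the filter. RIGI, IFIH1 and TBK1 passed only with the filter, and whether it lowers the share of false calls was not tested here. The members, lists and filter were chosen with earlier results of these data known. All members were named, with up to 4 called genes of each list by smallest adjusted p. Alternatives were 3 normalizations, other filters, log2(intensity + 16), other variance models, the methods' t-test (with 2 groups the same as the analysis of variance they name), a replicate block, the mean of probe sets and each array left out. Arrays have no read depth, so the number of arrays limits the precision. A planned promoter motif is not reported here.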

Additional observations from a re-analysis of the deposited data

How the results depend on the processing

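With dim genes kept in the fit, 218 genes were higher and 244 lower in SALL4-sh, against 821 and 764 in the fit reported, and 0 of the 10 sensors and adaptors were higher and 1, ADAR, lower (1 higher and 3 lower at an unadjusted p under 0.05 from limma). The methods' t-test gave 113 and 144 genes, and again 0 members higher and 1 lower (1 and 3 without adjustment). With 1 array left out, 323 to 1115 genes were higher and 383 to 830 lower, with 0 to 2 members higher and 3 lower in each of the 6 fits. The cause was not tested in these cases, except that 5 arrays hold fewer samples. TICAM1, whose log2 fold change was 0.02, turned to -0.000104 after cyclic loess and to -0.0072 after quantile normalization, and ran from -0.11 to 0.11 with 1 array left out. TRIM25 turned to -0.0159 after cyclic loess, to -0.00189 without SALL4-sh replicate 3, and ran from -0.0523 to 0.24 with 1 array left out, and IKBKE ran from -0.11 to 0.31. Whether the replicate numbers pair the arrays cannot be settled from these values. Deviations of same-numbered arrays from their group means correlated at 0.14, 0.11 and -0.00089, and those of differently numbered arrays at -0.15 to 0.034. Replicates 1 and 2 of each group correlated best with their own number, and replicate 3 did not. With the replicate number as a block 903 genes were higher and 803 lower, and 1 member was higher and 3 lower. Median centring, cyclic loess, quantile normalization, the 50th percentile filter, the offset of 16, the trended robust fit and the mean of probe sets also left 1 member higher and 3 lower. The median of all genes tested moved by under 0.1 under every setting. Over all named genes and settings a call was lost in 111 cases and gained in 1, that of TLR3, and list counts moved by over 1.5 times in 54 cases. The floor hides differences between weak signals, which bears on DHX58 and STING1.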
